A study of Drosophila melanogaster with 4 samples.

Results

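H3K27me1 clusters on the fourth chromosome, on the heterochromatic (Het) scaffolds and on the unplaced sequence U are described here, across 3 deposited lists of enriched regions from heads of adult Drosophila melanogaster. All lines of the lists whose sequence name is 4, 2LHet, 2RHet, 3LHet, 3RHet, XHet, YHet or U were taken. That gave 200 of the 6501 clusters of replicate 1, 174 of the 6601 clusters of replicate 2, and 333 of the 9662 clusters of a further list that the authors made for the replicate set. Of these, 64, 49 and 91 lay on chromosome 4, 65, 68 and 91 on the Het scaffolds, and 71, 57 and 151 on U. The clusters of arms 2L, 3L, 3R and X (5072, 5114 and 7673) served as background, and 2R was not used here.

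The study mapped the monomethylated form of histone H3 lysine 27 by chromatin immunoprecipitation and sequencing (ChIP-seq) with a Millipore antibody. All groups were nuclei from heads of wild-type Oregon-R flies of mixed adult age, kept in population cages on a 22-day cycle. The series holds 2 H3K27me1 ChIP replicates and 2 Input libraries, the sheared chromatin without antibody, and the labels name 1 Input library for each ChIP list. The Input libraries were not used directly here. Whether they entered the deposited calls and scores is not given in the sources used. The labels do not state if the replicates were separate fly collections, so differences between the replicates may be technical. Sieved heads contain many cell types, so a cluster is an average over them. Read depth is not part of the lists and is unknown, so no counting interval on an enrichment can be given.

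E(z), the enzyme of the Polycomb group, methylates lysine 27 of histone H3, the residue read here. Its trimethylated form is the mark of Polycomb silencing. Chromosome 4, the dot chromosome, carries active genes embedded in chromatin rich in HP1 and H3K9 methylation. The Het scaffolds hold assembled pieces of the repeat-rich sequence near the centromeres, plus pieces of the Y. U joins sequence that had not been placed on any chromosome, so neighbours on U need not be neighbours in the nucleus. Coordinates are those of FlyBase release 5, and the score is the authors' value per cluster, whose unit is not stated.

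The first comparison asked how densely the 3 classes were marked relative to the background arms. Chromosome 4 held 47.3 clusters per Mb in replicate 1 and 36.2 in replicate 2, against 51.8 and 52.2 on the background arms. The Het scaffolds held 7.00 and 7.33 clusters per Mb, and U held 7.07 and 5.67. The densities of the Het scaffolds and U thus lay far below those of chromosome 4 and the arms in both replicates, while the Het and U ranges overlap. Relative to the background arms the density was 0.804 ± 0.155 times on chromosome 4, 0.138 ± 0.00359 times on the Het scaffolds and 0.122 ± 0.0196 times on U (SD, n = 2 each).

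The covered share of the sequence was also lower on the Het scaffolds and U than on chromosome 4 and the arms in both replicates. It was 19.9% and 13.8% on chromosome 4, 3.90% and 3.14% on the Het scaffolds, 1.66% and 1.28% on U, and 19.2% and 18.2% on the background arms. Chromosome 4 lay above the arms in replicate 1 and below them in replicate 2, so no direction holds for it. Class and arm values come from the same 2 lists and are thus paired by library. Even an exact two-sided permutation of 2 against 2 values that ignores this pairing cannot go below p = 0.33. Clusters of 1 library are not replicates. The differences between classes are therefore given as values in each replicate, without a test. Where reads can be placed on these sequences is not part of the lists, so a low density is not a measured level of H3K27me1.

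**Figure D1:**
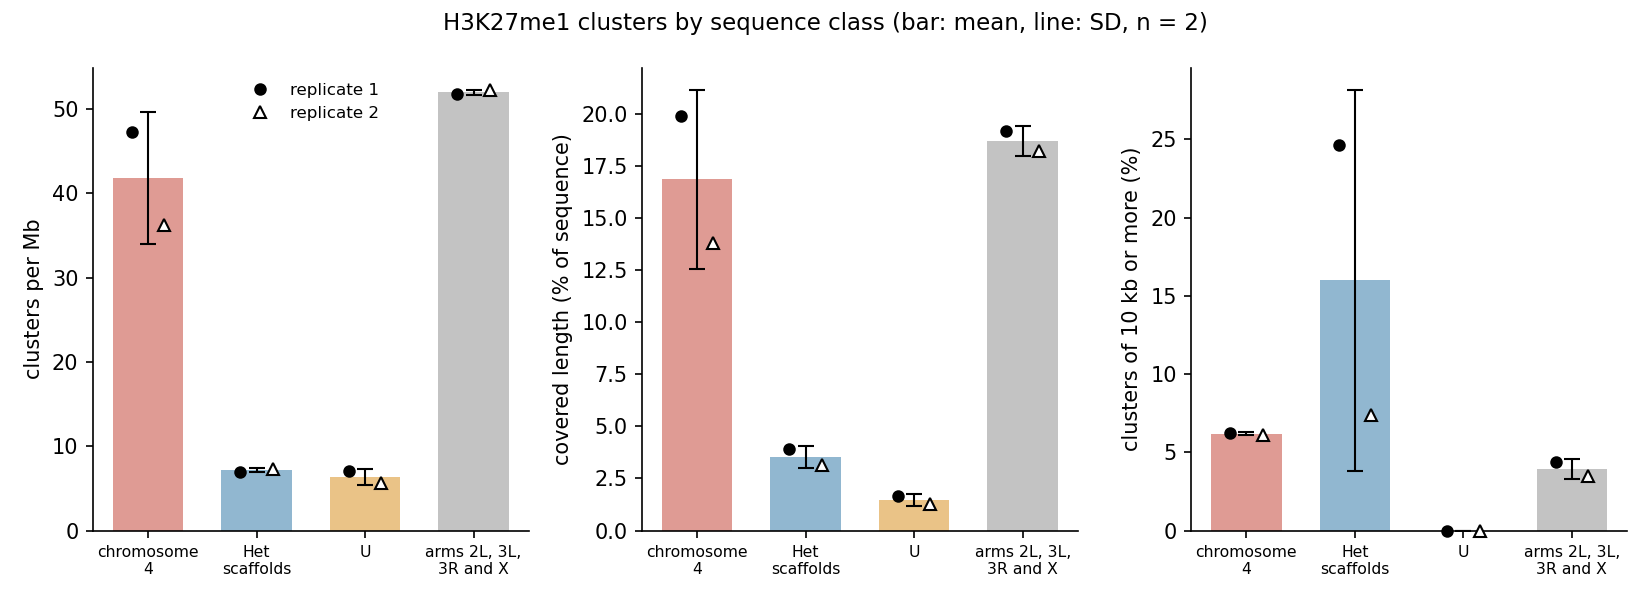
Clusters per Mb, covered share of the sequence and share of clusters of 10 kb or more for chromosome 4, the Het scaffolds, U and arms 2L, 3L, 3R and X; bars are means of 2 replicates, lines SDs, circles replicate 1 and triangles replicate 2. The Het scaffolds and U sit between 5.67 and 7.33 clusters per Mb in both replicates, against 51.8 and 52.2 on the arms.

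Among the Het scaffolds, the densest by number in replicate 1 was XHet, the shortest at 0.204 Mb, with 3 clusters or 14.7 per Mb. In replicate 2 it held 2 clusters or 9.80 per Mb, close to the 9.39 of 3LHet and the 9.12 of 2RHet. Scaffold 3RHet was the sparsest apart from YHet, with 8 clusters in each replicate over 2.52 Mb, or 3.18 per Mb. Coverage ran from 1.66% on 3RHet to 5.68% on XHet in replicate 1 and from 1.39% on 3RHet to 4.66% on 2RHet in replicate 2, leaving out YHet. The 0.347 Mb of YHet, from the Y chromosome, held 0 clusters in replicate 1 and 1 in replicate 2.

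Median width was lowest on U among the 4 classes, with arm X of the background close to it. Median widths were 3126 and 2457 bp on chromosome 4, 3123 and 2499 bp on the Het scaffolds, 1908 and 1999 bp on U, and 2674 and 2556 bp on the background arms. Clusters on U were thus narrower than those of the pooled arms in both replicates, at 0.748 ± 0.0484 times the median (SD, n = 2). Arm X alone had medians of 2216 and 2061 bp, near those of U, while 2L, 3L and 3R had 2596 to 2918 bp. Narrow clusters were therefore not particular to U. For chromosome 4 and the Het scaffolds the order against the arms differed between the replicates.

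Broad clusters of 10 kb or more were found on chromosome 4 and the Het scaffolds and not on U in either replicate. On the Het scaffolds 16 of 65 clusters reached 10 kb in replicate 1 and 5 of 68 in replicate 2. That is 24.6% and 7.35%, against 4.38% and 3.50% of the background clusters. The share was higher than the background in both replicates, but its value rests strongly on the replicate. In replicate 1 the broad Het clusters held 60.3% of the covered length of the class, and in replicate 2 they held 29.6%, against 16.6% and 13.7% on the arms. Of the 16 broad Het clusters of replicate 1, 9 lay on 2RHet and 5 on 3LHet. Chromosome 4 had 4 of 64 (6.25%) and 3 of 49 (6.12%). The replicate-set list held 5 such clusters on chromosome 4 (5.49%), 17 on the Het scaffolds (18.7%) and 1 on U (0.66%), against 6.13% of its background clusters. Chromosome 4 thus lay below the background in this list and above it in both replicates.

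In replicate 2 more of the Het clusters were pieces of a wider replicate 1 cluster. Of the 65 Het clusters of replicate 1, 12 overlapped at least 2 clusters of replicate 2. Of the 68 Het clusters of replicate 2, 2 overlapped at least 2 of replicate 1. On chromosome 4 these counts were 5 of 64 and 1 of 49, and on U 3 of 71 and 5 of 57. The background arms had 464 of 5072 and 345 of 5114. The share of gaps under 1 kb between neighbouring Het clusters was 18.3% in replicate 1 and 32.3% in replicate 2, whereas on the arms it was 21.6% and 21.2%.

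The widest Het domain of the replicate-set list was 2RHet 3136382 to 3177472, of 41.1 kb. Each replicate held it as 2 clusters, covering 96.3% of it in replicate 1 and 84.1% in replicate 2. Next came 3RHet 1683116 to 1705148 (22.0 kb), held as 1 cluster in replicate 1 and 3 in replicate 2. The third, 2RHet 227382 to 247572 (20.2 kb), was 2 clusters in replicate 1 and 4 in replicate 2, covering 93.9% and 91.1%. On chromosome 4 the widest was 111466 to 130284 (18.8 kb), with 1 cluster in replicate 1 and 3 in replicate 2. It was followed by 1189820 to 1201832 (12.0 kb) and 381522 to 393350 (11.8 kb). The 381522 to 393350 domain was 1 cluster in both replicates, covering 97.9% and 95.6%. On U the widest was 4225724 to 4237490 (11.8 kb), which replicate 1 covered to 86.4% and replicate 2 to 51.0%. These domains were chosen from the replicate-set list among clusters overlapping both replicates, so their coverage is no independent check.

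Position along the sequence was compared next, and long parts of the Het scaffolds held no cluster. On 2LHet all clusters of the 3 lists lay between 19795 and 39452, within the first 10.7% of the scaffold. On XHet both replicates marked a stretch from 66886 to 86563, and on YHet the single cluster of replicate 2 lay at 3641 to 5024. On 3RHet the first cluster began at 1598314 in replicate 1, 1598375 in replicate 2 and 1598324 in the replicate-set list. The first 63.5% of that scaffold was thus without a cluster in all 3 lists. Past this empty part, its 8 clusters in each replicate were spread up to 2481898 in replicate 1 and 2517507 in replicate 2.

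On 2RHet the clusters fell into separate stretches with long empty sequence between them. From 1619940 to 2776625, over 1157 kb, replicate 1 held no cluster, and replicate 2 held none from 1619082 to 2776643. The last 20% of the scaffold held 11 of 29 clusters in replicate 1 and 12 of 30 in replicate 2. On 3LHet the last 20% held 12 of 22 and 12 of 24 clusters, and the first 20% held none in the 3 lists. The longest Het run of clusters less than 10 kb apart in replicate 1 was 2RHet 200038 to 247194, with 5 clusters covering 78.8% of 47.2 kb. In replicate 2 it was 199857 to 247281, with 9 clusters covering 74.6% of 47.4 kb.

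Chromosome 4 was marked along most of its length, between 57939 and 1322390 in replicate 1 and between 59401 and 1322416 in replicate 2, with long empty stretches. In blocks of 250 kb, replicate 1 held 11, 13, 10, 10, 15 and, in the short last block, 5 clusters. Replicate 2 held 6, 10, 10, 9, 10 and 4. The counts in the first block differed most between the replicates in proportion. The longest run in replicate 1 was 877026 to 950176, with 8 clusters over 73.2 kb, and the run with most clusters was 1189669 to 1250249, with 10 clusters over 60.6 kb. In replicate 2 the longest run was 351474 to 392961, with 5 clusters over 41.5 kb.

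The longest stretch of chromosome 4 without a cluster in the replicate-set list was 716229 to 802303, of 86.1 kb. Nearly the same stretch was empty in replicate 1 (716152 to 802332, 86.2 kb) and in replicate 2 (716084 to 803746, 87.7 kb). The longest empty stretch of each replicate lay elsewhere, at 235097 to 336146 (101 kb) in replicate 1 and 148593 to 337762 (189 kb) in replicate 2. On U, no list held a cluster before 1178870, so the first 11.7% was empty. Its block with most clusters was 6000001 to 7000000 in all 3 lists, with 15, 14 and 33 clusters.

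**Figure D2:**
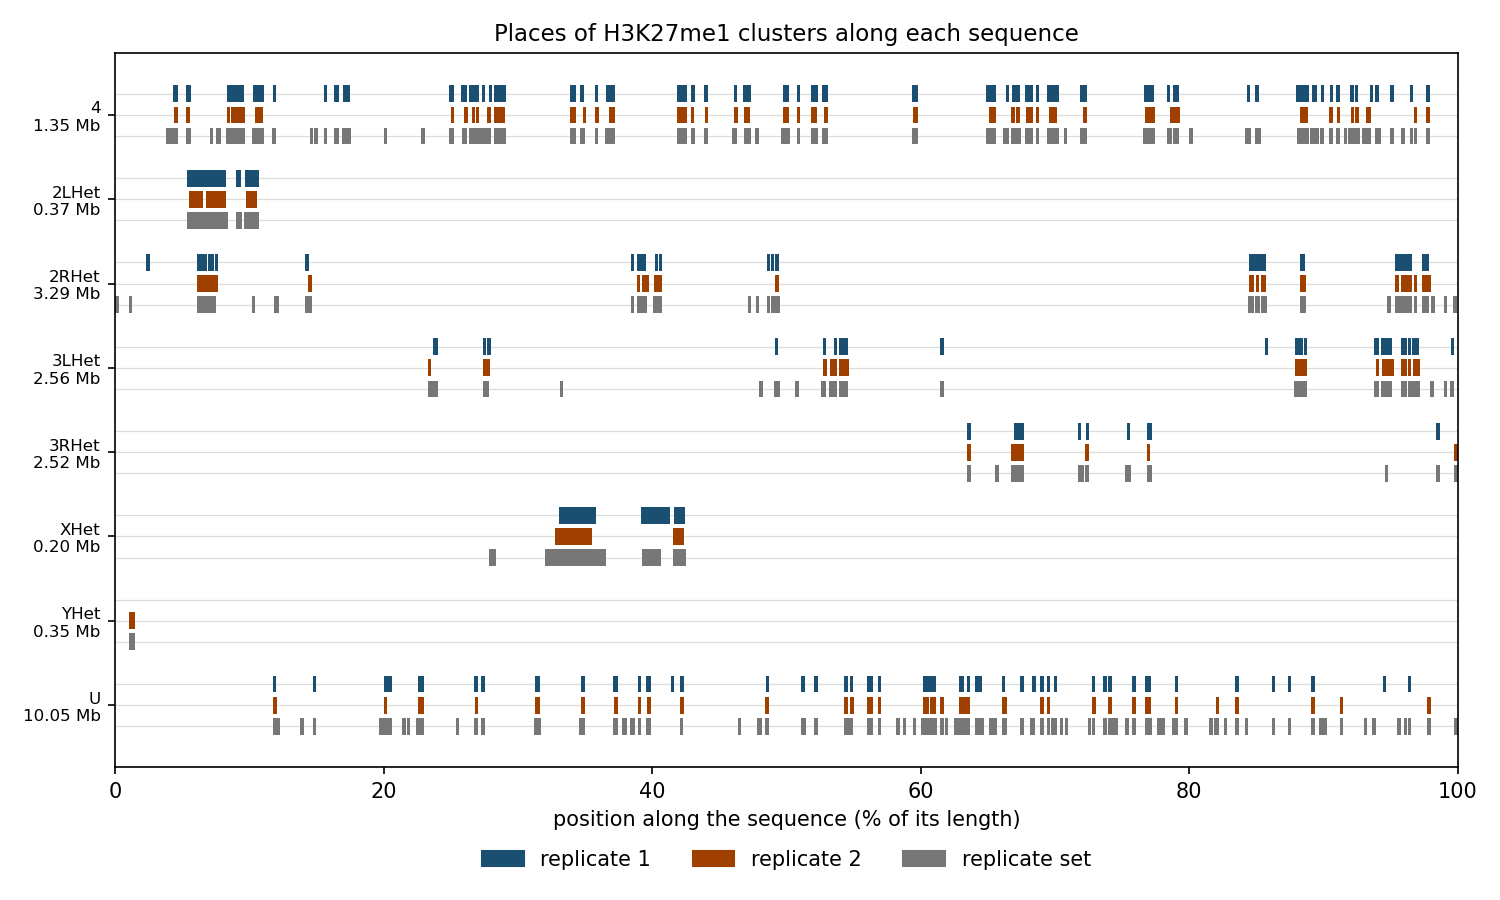
Places of clusters along chromosome 4, each Het scaffold and U, as a percentage of the sequence's length, with 1 row for each replicate and for the replicate set; clusters are drawn at least 0.25% of the length wide. On chromosome 4 clusters are spread from 4.29% to 97.8% of the length in replicate 1, whereas 3RHet is empty up to 63.5% of its length in all rows and 2LHet is marked up to 10.7%.

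Spacing differed most on U. The median gap between neighbouring clusters was 52829 and 50620 bp on U, 6203 and 9960 bp on chromosome 4, 6751 and 3637 bp on the Het scaffolds, and 3784 and 3815 bp on the background arms. Gaps of 50 kb or more made up 50.0% of U gaps in both replicates, 31.7% and 22.6% of Het gaps, 11.1% and 14.6% of chromosome 4 gaps, and 7.46% and 7.69% of background gaps. On the Het scaffolds pooled, the median gap was 0.0718 and 0.0405 times the mean gap, against 0.243 and 0.244 times on the arms. This held for 2RHet (0.0342 and 0.0346 times) and 3LHet (0.0953 and 0.0365 times). On 3RHet it did not, with median gaps of 73573 and 79817 bp, which were 0.612 and 0.632 times the mean gap.

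The scores set U apart from the other classes. Their unit is not stated, so a higher score on U is not a measured level of H3K27me1. Scores on U also took related values more often than those of the other classes, as given in the closing section. What this means for their height was not tested. Replicate 1 medians were 1.57 on U, 0.63 on chromosome 4, 0.79 on the Het scaffolds and 0.72 on the background arms. Replicate 2 medians were 1.50 on U, 0.66 on chromosome 4, 0.68 on the Het scaffolds and 0.72 on the arms. The U median exceeded that of the arms by 0.814 ± 0.0446 (SD, n = 2), and chromosome 4 fell short of it by a small margin in both replicates, with a difference of -0.08 ± 0.02. The Het scaffolds lay above the arms in replicate 1 and below them in replicate 2. A score above 1, a threshold chosen after the values were seen, was reached by 59 of 71 U clusters in replicate 1 (83.1%) and 44 of 57 in replicate 2 (77.2%), against 12.7% and 12.0% of the background clusters. Chromosome 4 had 4 of 64 (6.25%) and 3 of 49 (6.12%) above 1, and the Het scaffolds 12 of 65 (18.5%) and 8 of 68 (11.8%). The highest background score was exceeded by 32 U clusters in replicate 1 and 23 in replicate 2, and by none on chromosome 4 or the Het scaffolds. The arms reached 3.22 in the replicate-set list, where 3 of 151 U clusters scored higher. In the replicate-set list, scores above 1 were held by 4 of 91 clusters on chromosome 4, 9 of 91 on the Het scaffolds and 114 of 151 on U, against 4.55% on the arms. Of the 100 highest scores of each replicate among these 4 classes, 51 lay on U in replicate 1 and 41 in replicate 2, although U held 1.35% and 1.08% of the clusters.

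At like width U again lay above the arms and chromosome 4 below them. Among clusters under 2 kb, U had medians of 1.41 and 1.40, against 0.58 and 0.59 on the background arms. Among clusters of 2 to 5 kb, U had 1.79 and 1.56, against 0.75 and 0.75. Chromosome 4 lay below the arms in all 4 width classes of both replicates, by 0.04 to 0.17. Its widest class held only 4 and 3 clusters. The arms here include X, whose median scores over all widths (0.77 and 0.84) exceeded those of 2L, 3L and 3R (0.68 to 0.71). A comparison at like width without X was not made. Width and score were correlated on chromosome 4 (Spearman's rho across clusters 0.72 and 0.75) and on the Het scaffolds (0.80 and 0.70), as on the arms (0.75 and 0.70). On U the rho was 0.13 and 0.10. These are descriptions across clusters of 1 library, which share its depth.

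**Figure D3:**
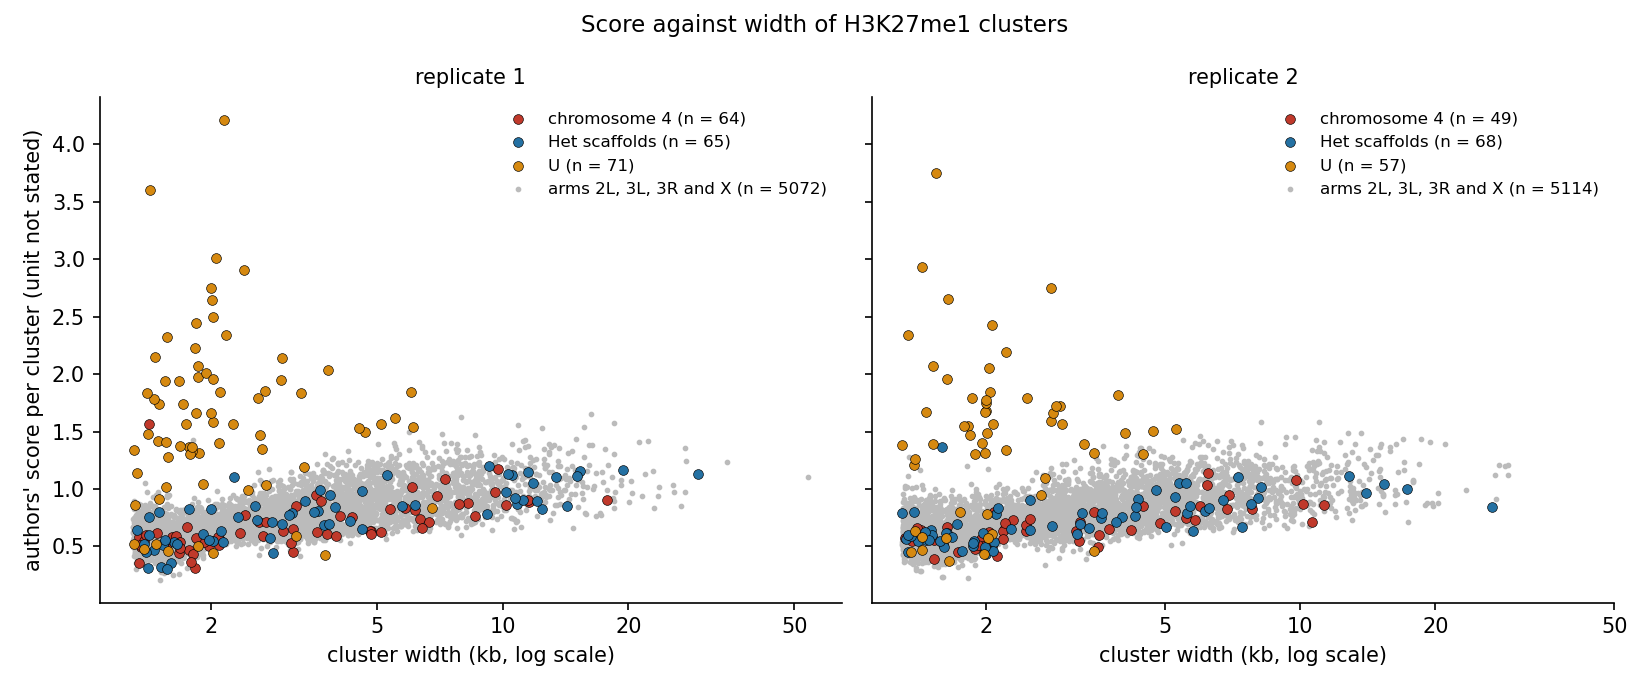
The authors' score per cluster against cluster width (log scale) in replicate 1 and replicate 2, for chromosome 4, the Het scaffolds, U and arms 2L, 3L, 3R and X. Most U clusters lie above the arms at narrow widths, with medians of 1.57 and 1.50, while most chromosome 4 and Het clusters lie within the cloud of the arms.

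The top cluster on U in each replicate was narrower than the median background cluster, of 2674 and 2556 bp. In replicate 1 it was wider than the U median of 1908 bp. In replicate 1 the top was 7392866 to 7395007, of 2.14 kb, with a score of 4.22, and no cluster of replicate 2 overlapped it. In replicate 2 the top was 5505141 to 5506688, of 1.55 kb, with 3.75, and neither replicate 1 nor the replicate-set list held a cluster there. Among places marked in both replicates, 6925268 to 6927642 led with a replicate-set score of 2.48, and its replicate scores were 2.45 and 2.43. The next, 7708598 to 7710604, scored 2.75 in replicate 1 and 1.79 in replicate 2. The third, 5457594 to 5459770, scored 1.85 and 2.05.

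Ranked by the score of the replicate-set list, the highest place on chromosome 4 marked in both replicates was 565994 to 575904 (9.91 kb), with scores of 1.18 and 1.08. It was followed by 457924 to 464526 (1.02 and 1.03) and 879776 to 887168 (0.94 and 0.94). All 3 were 1 cluster in each replicate and were covered to more than 90% in both. By replicate scores the order differs, since the highest cluster within 1189820 to 1201832 scored 1.08 in replicate 1 and 1.14 in replicate 2. The highest score of replicate 1 on the chromosome, 1.57 at 1303664 to 1305078, had no partner in replicate 2. By the same ranking the highest on the Het scaffolds were 2RHet 2807100 to 2820852 (1.10 and 1.11), 3LHet 2244414 to 2261856 (1.11 and 1.04) and 3LHet 2410250 to 2429854 (1.20 and 1.10 for the highest cluster in it). Here too the replicate scores give another order, with 1.16 and 1.05 for the highest cluster within 2RHet 227382 to 247572.

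Presence in both replicates was then compared. A cluster was counted as found where it shared at least 1 bp with a cluster of the other replicate. Of the replicate 1 clusters, 40 of 64 on chromosome 4 (62.5%, exact 95% binomial interval 49.5% to 74.3%) were found in replicate 2, 42 of 65 on the Het scaffolds (64.6%, 51.8% to 76.1%) and 45 of 71 on U (63.4%, 51.1% to 74.5%). The background share was 79.5%, higher than the 3 class shares. The intervals cover counting error only and treat clusters of 1 library as independent, so they are no test of a difference. Arm X, counted within that background, had 62.4%, and the 3 other arms had 83.7% to 84.4%.

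In the other direction the shares were higher. Of the replicate 2 clusters, 45 of 49 on chromosome 4 (91.8%, 80.4% to 97.7%), 57 of 68 on the Het scaffolds (83.8%, 72.9% to 91.6%) and 44 of 57 on U (77.2%, 64.2% to 87.3%) were found in replicate 1. The background share was 81.9%, below chromosome 4 and the Het scaffolds and above U. Among the 4 classes the 2 directions therefore differ most on chromosome 4, where replicate 1 holds 24 clusters without a partner and replicate 2 holds 4. Arm X also had a lower share from replicate 1 (62.4%) than from replicate 2 (79.4%). Arms 2L, 3L and 3R had 82.1% to 82.6% from replicate 2. Among chromosome 4 clusters under 2 kb, 4 of 22 of replicate 1 (18.2%) were found in replicate 2, against 52.3% on the arms. Among those of replicate 2, 10 of 13 (76.9%) were found in replicate 1, against 56.7% on the arms. Chromosome 4 thus lay below the arms in the first direction and above them in the second. Clusters of 10 kb or more were all found in the other replicate, on chromosome 4 as on the arms.

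Clusters found in both replicates had higher median scores than the rest on chromosome 4, the Het scaffolds and the arms, and lower medians on U. On U, replicate 1 clusters found in replicate 2 had a median of 1.53 and those not found 1.89. In replicate 2 these medians were 1.43 and 1.95. On the background arms they were 0.75 and 0.63 in replicate 1, and 0.75 and 0.62 in replicate 2. On chromosome 4 they were 0.76 and 0.54 in replicate 1, and 0.66 and 0.65 in replicate 2, where only 4 clusters were not found. On the Het scaffolds they were 0.87 and 0.60, then 0.75 and 0.59. Found clusters were wider in all 4 classes, on U by less: 2025 against 1745 bp in replicate 1 and 2036 against 1643 bp in replicate 2.

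Clusters of the replicate-set list were also looked up in both replicate lists. Of its clusters, 40 of 91 on chromosome 4 (44.0%), 37 of 91 on the Het scaffolds (40.7%) and 39 of 151 on U (25.8%) overlapped both replicates, against 44.2% on the background arms. Overlap with neither replicate was seen for 29 (31.9%), 31 (34.1%) and 77 (51.0%), against 35.5%. The shares of chromosome 4 and the Het scaffolds thus lay near the background, and U had fewer clusters backed by both replicate lists. On U the set clusters in neither replicate had a median score of 1.57 and those in both 1.42, whereas on the arms these were 0.43 and 0.67.

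**Figure D4:**
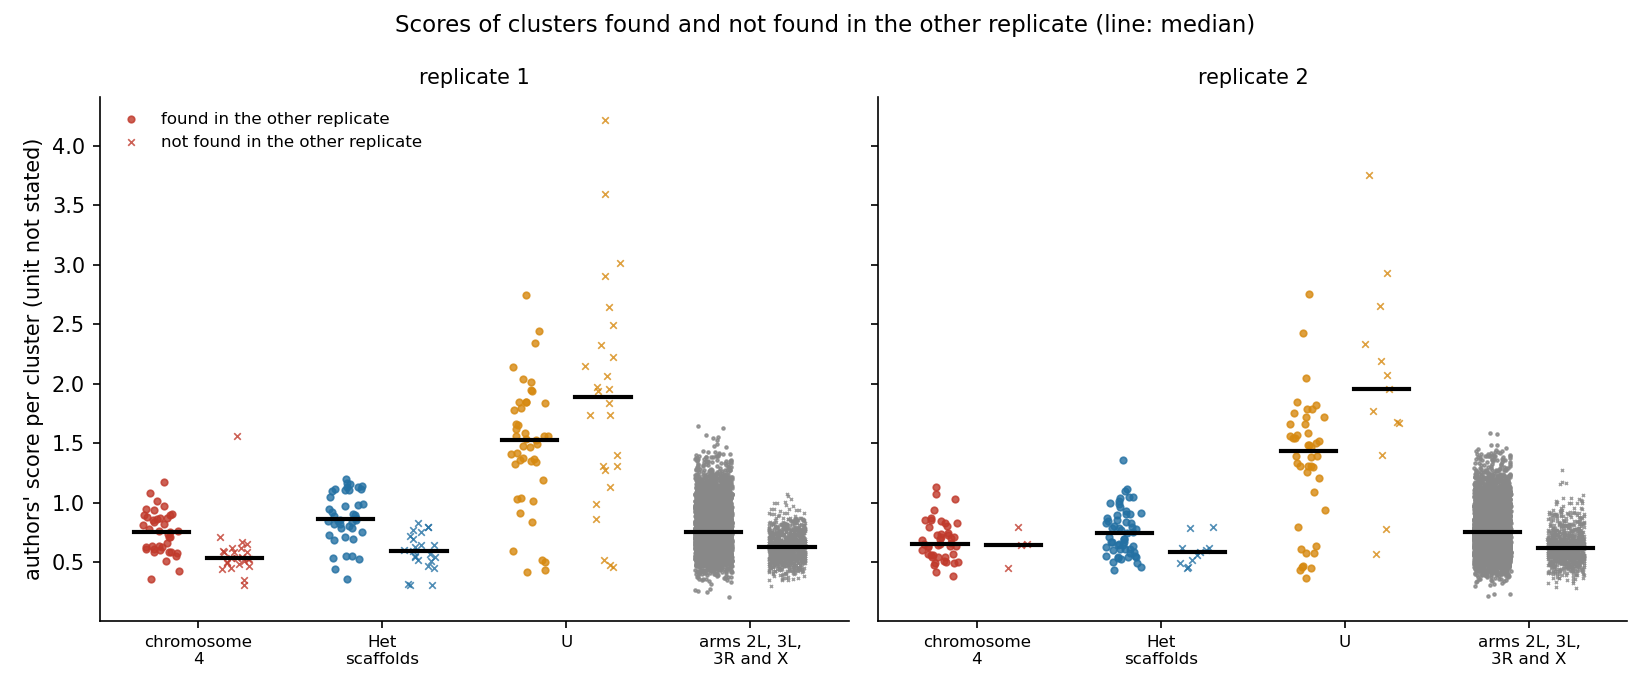
The authors' score of clusters found (circles) and not found (crosses) in the other replicate, by class, for replicate 1 and replicate 2; black lines are medians. On U the clusters without a partner have the higher median (1.89 and 1.95, against 1.53 and 1.43), the opposite order to the arms.

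Scores could be set side by side for clusters that overlap one to one. For 34 such pairs on chromosome 4, subtracting the replicate 1 score from the replicate 2 score gave a median of -0.04 (SD of the pairs 0.10). Over 26 Het pairs it was -0.10 with an SD of 0.13, over 34 U pairs -0.08 with an SD of 0.31, and over 3045 background pairs -0.01 with an SD of 0.11. In score units the spread between replicates at the same place was thus widest on U, where scores were also highest. Pearson's r across pairs was 0.83 on U, 0.82 on chromosome 4, 0.83 on the Het scaffolds and 0.86 on the arms. Spearman's rho was 0.71, 0.78, 0.80 and 0.83 in the same order. Scores were lower in replicate 2 in 22 of 34 pairs on chromosome 4, 21 of 26 on the Het scaffolds and 25 of 34 on U, against 1617 of 3045 on the arms. Clusters were narrower in replicate 2 in 28 of 34, 20 of 26 and 20 of 34 pairs, against 1639 of 3045 (53.8%) on the arms.

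**Figure D5:**
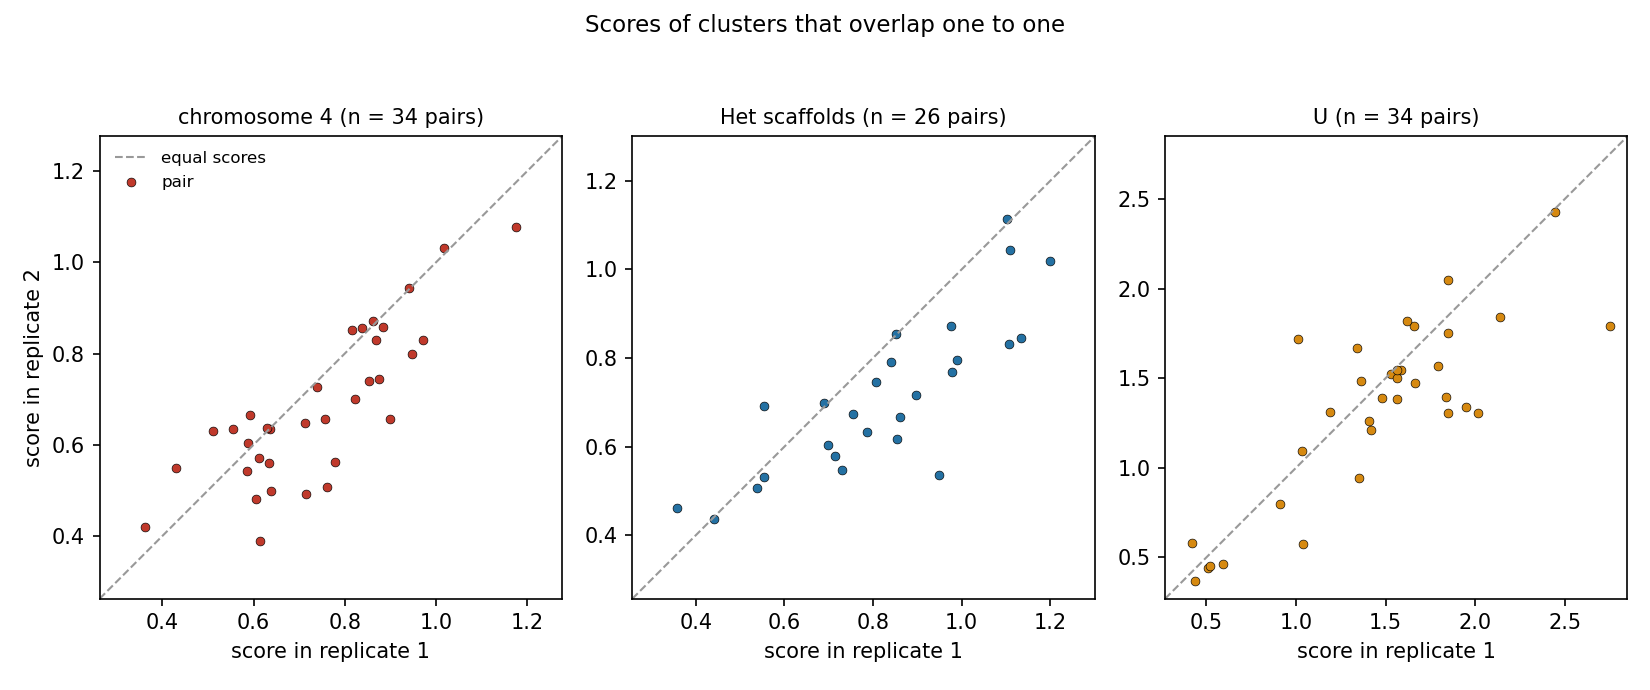
Score in replicate 2 against score in replicate 1 for clusters that overlap one to one, on chromosome 4 (34 pairs), the Het scaffolds (26 pairs) and U (34 pairs); the dashed line marks equal scores. Most points lie below the line, with 22, 21 and 25 pairs lower in replicate 2, against 1617 of 3045 pairs on the arms, which are not drawn.

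The covered length in replicate 2 was lower than in replicate 1 on chromosome 4 (0.693 times), on U (0.769 times) and on the 5 Het scaffolds with clusters in both. On these scaffolds it was 0.638 times on XHet, 0.768 on 3LHet, 0.800 on 2LHet, 0.823 on 2RHet and 0.833 on 3RHet. On arms 2L, 3L and 3R the ratio was 0.974 to 0.996, and on the X it was 0.763. The number of clusters did not follow on the Het scaffolds, where replicate 2 held 1.05 times as many. The part of a difference between the libraries themselves in these values was not tested.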

How the data were processed

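Enriched regions (clusters) of 2 H3K27me1 ChIP replicates and of their replicate set were used as the authors deposited them, with coordinates of FlyBase release 5 per the file headers. Each line carries a score, which is the authors' own value per cluster, as deposited, and its unit is not stated. The reads were aligned with Bowtie 0.12.7, per the submitters' processing notes. Which program called the clusters, with which threshold and filters, and how the replicates were joined into the set is not given in the sources used here.

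Lines were sorted into chromosome 4, the Het scaffolds, U and the background arms 2L, 3L, 3R and X by sequence name. Sequence lengths came from the file headers, and cluster ends past a sequence's length were set to it. Overlap meant at least 1 bp shared. Shares carry exact Clopper-Pearson 95% binomial intervals, which cover counting error only, and read depth is unknown. Values were computed with Python 3.11.15, numpy 2.4.6, pandas 2.3.3 and scipy 1.17.1, drawn with matplotlib 3.10.9, and the code was checked on simulated data.

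Named regions were the 3 widest and 3 highest-scoring set clusters per class that overlap both replicates, the highest cluster found in a single replicate, every XHet and YHet cluster, the longest empty stretch of chromosome 4 and the U block with most clusters. Runs, top-score counts and the score threshold of 1 were chosen after the values were seen. Members and lists were chosen with earlier results of these data known. Alternatives were a stricter overlap, a midpoint overlap, merged clusters, a minimum width, the upper range of scores, the span as length, other arms, leaving out 2RHet, the set list and leaving out each replicate. The gene table used release 6 coordinates, so no gene was assigned, and no sequence is printed.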

Additional observations from a re-analysis of the deposited data

How the results depend on the processing

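No paired analysis was possible because the ChIP and Input libraries share replicate numbers but the lists used here hold ChIP clusters, and no test was run. Ratios and differences are to the background arms, and the cause of each move was not tested. Of 80 values under alternatives other than leaving out a replicate, 50 stayed within 1 SD or, for shares of the set list, which has no replicates, within the width of the binomial interval on either side, 22 moved further and 8 changed direction. Keeping clusters of at least the median score gave density ratios of 0.582 on chromosome 4, 0.145 on the Het scaffolds and 0.210 on U, coverage ratios of 0.212 (Het) and 0.099 (U), and found-share differences of 3.79 percentage points on chromosome 4, against -3.54 for all clusters, and -22.3 on U. With length from first to last cluster, density ratios were 0.215 (Het) and 0.143 (U), and coverage ratios 0.293 and 0.092. Without the X as background, Het density was 0.132, the chromosome 4 score difference -0.0516 and the U gap ratio 15.3. Without 2RHet, Het density was 0.119, coverage 0.140, width 0.947 and score difference -0.0217. In the set list, width ratios were 0.949 (chromosome 4), 0.871 (Het) and 0.811 (U), score differences -0.0511 (chromosome 4) and 0.95 (U), densities 0.125 (Het) and 0.192 (U), and U coverage 0.12. Merging neighbours gave a U width ratio of 0.612. The difference in set clusters overlapping both replicates became 0.117 on chromosome 4 and 2.64 on the Het scaffolds for clusters of at least 2000 bp, and 2.28 on chromosome 4 with 50% of both clusters shared.

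Leaving out each replicate gave, for chromosome 4, coverage ratios of 0.759 to 1.04, width ratios of 0.961 to 1.17 and found-share differences of -17.0 to 9.94. For the Het scaffolds it gave width ratios of 0.978 to 1.17, score differences of -0.0368 to 0.0722, gap ratios of 0.953 to 1.78 and found-share differences of -14.9 to 1.93. These directions therefore rest on which replicate is used.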

Other observations

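The scores on U took related values. Pairs of distinct scores were checked for a difference that equals, within 1e-06, the log2 of a quotient of whole numbers. Only the divisor was limited, to at most 20. On U, 9.88% of 2278 pairs in replicate 1 and 8.82% of 1485 pairs in replicate 2 had such a difference. On chromosome 4 these shares were 0.248% and 0%, on the Het scaffolds 0.0962% and 0.132%, and on the background arms 0.0799% and 0.0867%. Among as many of the highest-scoring background clusters as U holds, they were 0.0402% and 0%. This comparison was chosen after the values were seen.

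In the replicate-set list, 58 of the 114 U clusters with a score above 1 overlapped no cluster of either replicate (50.9%), against 9 of 349 on the background arms (2.58%). On chromosome 4 these were 2 of 4, and on the Het scaffolds 3 of 9 (33.3%). Among U clusters with a score of 1 or less the share was alike, at 19 of 37 (51.4%), against 37.0% on the arms. The highest-scoring U cluster in neither replicate, U 2019660 to 2020798, scored 3.64.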
